A study of Mus musculus with 8 samples.

Results

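Bone marrow-derived dendritic cells of 2 genotypes differed before and within 1 h of stimulation, and the 4 libraries that show this are described here, out of 8 in the series. The cells carried either IFNAR;RelB-DBDB, described in the series record as loss of the type I interferon receptor combined with the RelB-DB/DB allele, or RelB-DBDB alone. Both groups therefore share the RelB allele, whose letters the labels do not expand, and neither holds a wild-type RelB. All mice were of the C57BL/6 strain, and their age, sex and number are not given in the labels. Marrow was grown with GM-CSF at 20 ng/ml and IL-4 at 10 ng/ml, which yields dendritic cells mixed with other myeloid cells. Each genotype has 1 control library, labelled 1 h, and 1 library after 1 h of 0.1 µM CpG, an unmethylated DNA oligonucleotide that activates Toll-like receptor 9. The libraries were picked by these labels, with earlier results of these data known, and paired by condition, IFNAR;RelB-DBDB over RelB-DBDB. Genes with at least 1 CPM (reads relative to the total of their library) in at least 2 of the 4 libraries were compared, which gave 11915 of 25017 rows with a gene name. Nothing in the labels says that the control and 1 h cultures of a genotype came from separate mice, so p-values here measure the spread between these libraries and not between animals.

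Type I interferons act through a receptor of the chains IFNAR1 and IFNAR2, which signals through JAK kinases and STAT factors with IRF9 to genes that hold an interferon-stimulated response element (ISRE). Interferon-γ, made mainly by T and NK cells, uses another receptor and acts largely through gamma-activated sites (GAS). Many genes answer to both, while the guanylate-binding proteins (GBPs), the immunity-related GTPases (IRGs) and Cxcl9 are known as strong interferon-γ responders.

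The genotypes differed widely but mostly by little. By limma on log2(CPM + 1) with an adjusted p under 0.05, 2597 genes were higher in IFNAR;RelB-DBDB (21.8% of those tested) and 1359 were lower (11.4%). With TMM scaling the split was 1923 higher and 2150 lower, as the median of all genes moved from a log2 difference of 0.06 to -0.01. By size alone, 233 genes were at least 2-fold higher in both pairs (1.96%) and 83 at least 2-fold lower (0.697%). Across genes the control and 1 h differences had a Pearson r of 0.776, a description over genes that share 4 libraries. A fit to all 8 libraries, which estimates the spread from the 3 h and 8 h cultures too, left 190 genes, 135 higher and 55 lower, all of them among the 3956 genes called in the 4 libraries. Of the 146 named genes with a fit, 8 were not called, and 70 of the called ones did not pass in that fit.

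**Figure D1:**
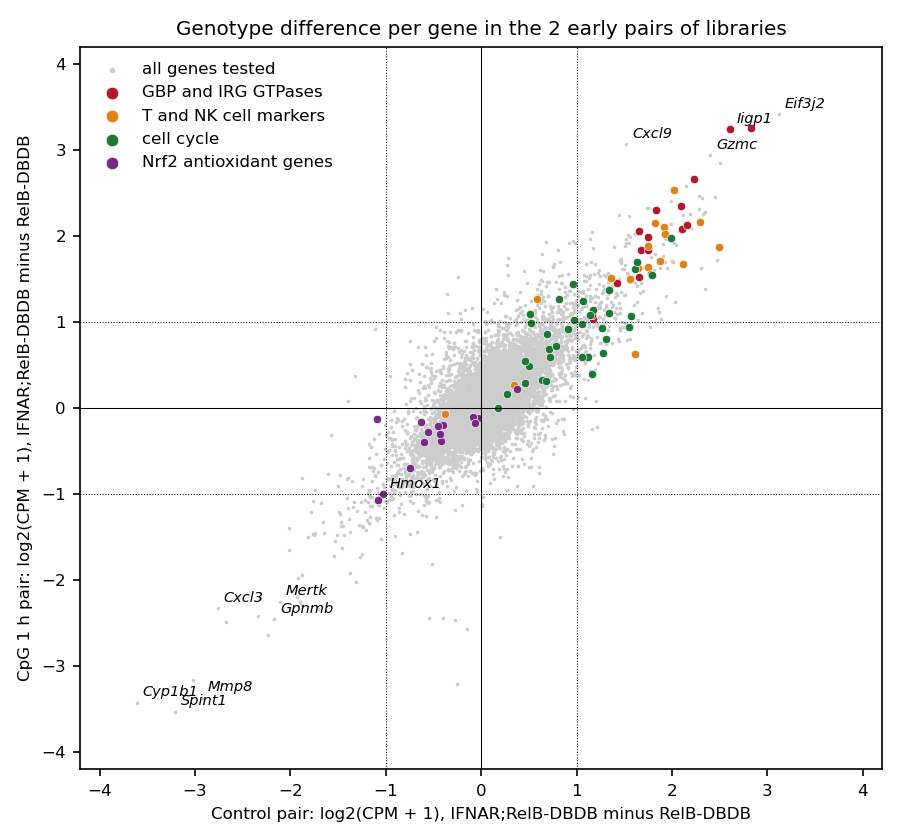
Each point is 1 gene, with its log2(CPM + 1) difference, IFNAR;RelB-DBDB minus RelB-DBDB, in the control pair on the x axis and in the 1 h CpG pair on the y axis. Colours mark 4 gene lists and dotted lines mark 2-fold. The GTPase genes all lie above 2-fold in both pairs, and the Nrf2 genes lie mostly below 0.

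The genes of both receptor chains were read in all 4 libraries, and the label IFNAR does not say which chain it refers to. Ifnar1 (chromosome 16, 91485238 to 91507441, plus strand of mm10) stood at 86.3 and 102 CPM in IFNAR;RelB-DBDB, against 127 and 123 CPM in RelB-DBDB (control first, then 1 h, here and below). It was lower in both pairs, by a log2 difference of -0.41 ± 0.07 (SE, adjusted p = 7.99e-06), and remained well read in IFNAR;RelB-DBDB. Ifnar1 did not pass in the limma fit to all 8 libraries (adjusted p = 0.26). A value per gene does not show whether part of the transcript is missing. Ifnar2 stood at 43.4 and 34.6 CPM in IFNAR;RelB-DBDB, against 43.1 and 35.4 CPM in RelB-DBDB, with a log2 difference of -0.01 (adjusted p = 0.953). Relb did not pass, at 121 and 115 CPM in IFNAR;RelB-DBDB, against 115 and 102 CPM in RelB-DBDB (adjusted p = 0.148). The Y-linked gene Ddx3y was read in all 4 libraries at 94.0 and 119.7 CPM in IFNAR;RelB-DBDB, against 125 and 125 CPM in RelB-DBDB, and Xist reached no more than 0.666 CPM in any of them. The CpG receptor gene Tlr9 stood at 80.5 and 79.3 CPM in IFNAR;RelB-DBDB, against 67.6 and 59.4 CPM in RelB-DBDB, a log2 difference of 0.33 ± 0.08 (SE, adjusted p = 0.000739). Tlr9 did not pass in the limma fit to all 8 libraries either (adjusted p = 0.63). The dendritic cell gene Cd74, for the invariant chain of MHC class II, stood at 8271 and 8554 CPM in IFNAR;RelB-DBDB, against 6986 and 7388 CPM in RelB-DBDB, and Itgax, for CD11c, at 1001 and 1071 CPM in IFNAR;RelB-DBDB, against 1319 and 1374 CPM in RelB-DBDB. Of the 16 tested dendritic cell markers, 8 were called higher (50.0%) and 3 lower (18.8%), beside 21.8% and 11.4% of all genes, the shares that every list below is set against.

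Of the interferon genes listed, those other than Ifng were hardly read at these times. Ifnb1, the first type I interferon made by stimulated dendritic cells, had 0 CPM in the IFNAR;RelB-DBDB control and 0.17 CPM at 1 h, against 0 CPM in both RelB-DBDB libraries, where 3 reads would be 0.285 and 0.487 CPM. Ifna2, Ifna4 and Ifnl3 had no read in any of the 4. Ifng, which encodes interferon-γ, was read in all 4, at 7.68 and 9.42 CPM in IFNAR;RelB-DBDB, against 3.04 and 2.27 CPM in RelB-DBDB, a log2 difference of 1.39 ± 0.19 (SE, adjusted p = 4.54e-08). It did not pass in the limma fit to all 8 libraries (adjusted p = 0.0523). Its level was higher in both pairs, as was that of 5472 of the 11915 genes tested, and the ranges of the genotypes did not overlap. How many of all genes show no overlap was not counted, here and below.

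The GTPase genes made the clearest group. GBPs and IRGs are interferon-induced GTPases that attack the vacuoles of intracellular microbes. All 15 tested members were called higher, where 21.8% of all genes were, and all 15 were at least 2-fold higher in both pairs, where 1.96% were. Their median log2 difference was 1.87, beside 0.06 for all genes, and 9 of the 15 also passed in the fit to all 8 libraries. Their summed level was 2344 and 2468 CPM in IFNAR;RelB-DBDB, against 611 and 612 CPM in RelB-DBDB. Of the list's 17 names, Gbp2b and Gbp6 were not among the tested genes.

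The promoters of 5 members are printed because GBP and IRG genes are known targets of interferon-driven factors, with those of 2 genes that lay on the other side. RefSeq promoter windows (GRCm38.p6, 250 bases before to 50 after the start) were searched on both strands for the ISRE core GAAANNGAAA and the GAS motif TTCNNNGAA, which reads the same on both strands. Of the 11 GTPase genes with a window, 10 held the ISRE core (90.9%), against 3.93% of the 8931 tested genes with one. The GAS motif stood in 7 of the 11 (63.6%), against 8.4%, and both together stood in 7, against 0.593%. The 11 include the near copies Tgtp1 and Tgtp2. Of 55 antiviral interferon-stimulated genes with a window, which split in 2 directions (below), 26 held the ISRE core (47.3%) and 9 the GAS motif (16.4%). Capitals mark these motifs, on either strand.
Gbp2 (chr3:142620413-142620712, plus strand): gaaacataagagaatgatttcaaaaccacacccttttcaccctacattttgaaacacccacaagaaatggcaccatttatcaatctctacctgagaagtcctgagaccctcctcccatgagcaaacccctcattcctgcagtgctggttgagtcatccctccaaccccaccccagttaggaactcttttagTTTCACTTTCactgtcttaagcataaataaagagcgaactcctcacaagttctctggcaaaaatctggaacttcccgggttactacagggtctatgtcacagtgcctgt
Gbp5 (chr3:142496684-142496983, plus strand): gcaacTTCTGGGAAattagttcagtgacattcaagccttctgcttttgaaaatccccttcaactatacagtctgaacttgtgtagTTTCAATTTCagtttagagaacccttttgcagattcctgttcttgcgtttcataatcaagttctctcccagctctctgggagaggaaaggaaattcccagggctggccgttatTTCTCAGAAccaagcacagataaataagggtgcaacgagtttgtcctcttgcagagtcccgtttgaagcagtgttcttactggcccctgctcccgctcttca
Igtp (chr11:58199306-58199605, plus strand): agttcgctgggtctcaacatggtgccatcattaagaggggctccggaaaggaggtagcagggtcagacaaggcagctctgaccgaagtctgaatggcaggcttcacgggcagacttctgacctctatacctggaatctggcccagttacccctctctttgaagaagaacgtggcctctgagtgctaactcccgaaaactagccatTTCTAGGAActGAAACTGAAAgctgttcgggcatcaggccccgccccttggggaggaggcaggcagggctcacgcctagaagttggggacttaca
Irgm2 (chr11:58214727-58215026, plus strand): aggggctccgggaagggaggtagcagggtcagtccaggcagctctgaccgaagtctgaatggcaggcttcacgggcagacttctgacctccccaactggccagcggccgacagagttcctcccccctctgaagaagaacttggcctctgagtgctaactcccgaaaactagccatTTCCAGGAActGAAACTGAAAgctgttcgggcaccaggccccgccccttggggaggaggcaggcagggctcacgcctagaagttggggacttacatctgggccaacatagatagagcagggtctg
Tgtp1 (chr11:48992197-48992496, minus strand): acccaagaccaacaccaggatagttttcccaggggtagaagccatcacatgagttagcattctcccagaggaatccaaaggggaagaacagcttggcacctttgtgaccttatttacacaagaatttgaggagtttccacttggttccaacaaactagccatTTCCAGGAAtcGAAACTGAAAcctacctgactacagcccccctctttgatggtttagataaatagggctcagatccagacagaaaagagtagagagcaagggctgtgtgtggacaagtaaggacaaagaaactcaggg
Oas1a (chr5:120907476-120907775, minus strand): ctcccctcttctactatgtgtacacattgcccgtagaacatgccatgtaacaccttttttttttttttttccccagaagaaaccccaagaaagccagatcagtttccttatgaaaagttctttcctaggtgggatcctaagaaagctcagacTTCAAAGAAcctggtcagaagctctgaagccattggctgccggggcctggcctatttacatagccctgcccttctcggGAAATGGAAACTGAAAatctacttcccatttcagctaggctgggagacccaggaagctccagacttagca
Oas1g (chr5:120887564-120887863, minus strand): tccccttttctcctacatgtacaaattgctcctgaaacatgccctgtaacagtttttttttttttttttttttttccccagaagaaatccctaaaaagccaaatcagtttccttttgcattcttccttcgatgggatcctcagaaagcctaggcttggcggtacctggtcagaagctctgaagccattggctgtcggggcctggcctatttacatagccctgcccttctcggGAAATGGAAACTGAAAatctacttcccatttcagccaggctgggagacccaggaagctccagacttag
In Igtp, Irgm2 and Tgtp1 the GAS motif began 11 bases before the ISRE core. Oas1a and Oas1g, which were lower in IFNAR;RelB-DBDB, held 2 overlapping ISRE cores each. A match is a run of letters and not evidence of binding.

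Gbp2 (chromosome 3, 142620602 to 142638008, plus strand) had the highest CPM of the group, a value not scaled by gene length, at 1151 and 1211 CPM in IFNAR;RelB-DBDB, against 267 and 284 CPM in RelB-DBDB. Its read ratio was 4.31 (95% interval 4.14 to 4.49) in control cells and 4.26 (95% interval 4.05 to 4.48) at 1 h, with intervals for counting error only. The log2 difference was 2.09 ± 0.05 (SE, adjusted p = 3.81e-37). Gbp5 (chromosome 3, 142493978 to 142522344, plus strand), a neighbour of Gbp2, stood at 17.5 and 19.4 CPM in IFNAR;RelB-DBDB, against 1.62 and 1.14 CPM in RelB-DBDB, and differed by 3.04 ± 0.18 (SE, adjusted p = 1.57e-20). Iigp1, an IRG on chromosome 18, reached 118 and 118 CPM in IFNAR;RelB-DBDB, against 18.5 and 11.5 CPM in RelB-DBDB, a log2 difference of 2.93 ± 0.10 (SE, adjusted p = 4.52e-31). In each of these 3 genes the lower IFNAR;RelB-DBDB library lay above the higher RelB-DBDB library by more than 4-fold. In the limma fit to all 8 libraries Gbp5 passed (adjusted p = 0.0256), while Gbp2 (adjusted p = 0.0507) and Iigp1 (adjusted p = 0.074) did not.

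Gbp4 differed by 2.22 ± 0.08 (SE, adjusted p = 6.93e-31), Igtp by 2.06 ± 0.09 (SE, adjusted p = 4.87e-26), Ifi47 by 1.87 ± 0.08 (SE, adjusted p = 3.88e-26) and Irgm1 by 1.76. Tgtp1 and Tgtp2 differed by 2.45 and 2.14, and as near copies they may share reads. Igtp and Irgm2 overlap in the annotation, and whether counting separated them is not given in the sources used here. The smallest differences of the group were those of Gbp3 (1.10) and Gbp8 (1.13). Within a genotype the summed levels in control and 1 h cells lay close together, and the plot of these genes by library shows each pair.

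**Figure D2:**
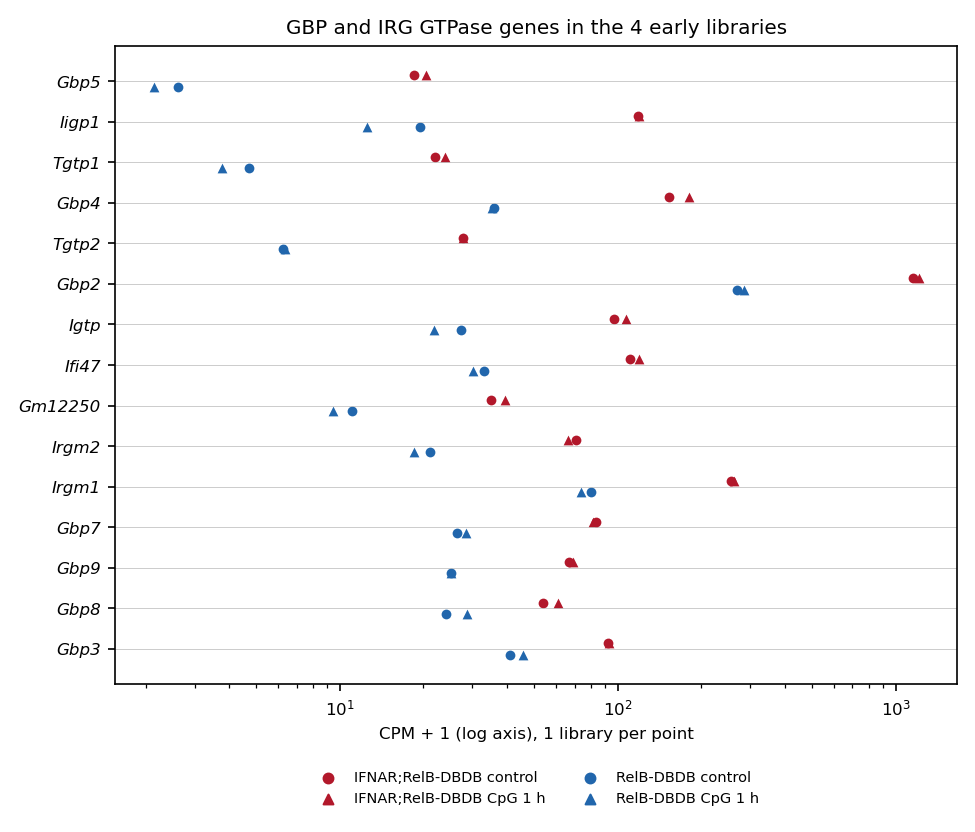
CPM + 1 on a log axis for the 15 tested GBP and IRG genes, 1 point per library, with IFNAR;RelB-DBDB in red and RelB-DBDB in blue and circles for control and triangles for 1 h of CpG. Both red points lie right of both blue points in every row.

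Among the largest differences of other lists were some genes known to answer to interferon-γ, which were picked by size and stand for no list. Cxcl9, a chemokine for T cells, stood at 3.76 and 8.74 CPM in IFNAR;RelB-DBDB, against 0.666 and 0.162 CPM in RelB-DBDB, a log2 difference of 2.29 ± 0.25 (SE, adjusted p = 4.55e-11). Cxcl10, a chemokine for the same receptor, stood at 5.59 and 22.4 CPM in IFNAR;RelB-DBDB, against 1.33 and 6.66 CPM in RelB-DBDB and differed by 1.56 ± 0.18 (SE, adjusted p = 2.32e-10). Both were higher in each pair, Cxcl9 by 1.51 in control cells and 3.07 at 1 h. Irf1, an interferon-induced transcription factor, stood at 271 and 405 CPM in IFNAR;RelB-DBDB, against 134 and 176 CPM in RelB-DBDB and differed by 1.11 ± 0.06 (SE, adjusted p = 4.7e-22). Ciita, the master regulator of MHC class II genes, reached 370.4 and 349 CPM in IFNAR;RelB-DBDB, against 157 and 128 CPM in RelB-DBDB, a difference of 1.34 ± 0.06 (SE, adjusted p = 1.38e-25). Nlrc5, its counterpart for MHC class I, differed by 1.19 ± 0.07 (SE, adjusted p = 1.8e-22).

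In antigen presentation the differences were smaller. Of 19 tested genes of MHC class I and peptide loading, 11 were called higher and 2 lower (6 lower with TMM scaling), with a median of 0.28. Tap1 and Tap2, the peptide transporter, differed by 0.68 and 0.60, and the immunoproteasome gene Psmb10 by 0.60. For MHC class II 6 of 13 were called higher and 2 lower, among them H2-DMa at 0.49 and H2-Ab1 at 0.34, with Cd86 lower at -0.33. Of 12 genes of the receptor and JAK-STAT list, 7 were called higher and 1, Ifnar1, lower. Socs1, which inhibits JAK kinases, differed by 1.18 ± 0.12 (SE, adjusted p = 2.92e-12), and Stat2 by 0.62 ± 0.07 (SE, adjusted p = 2.67e-11). Of 9 interferon regulatory factors 4 were called higher, Irf1, Irf2 (0.94), Irf3 (0.55) and Irf9 (0.32), and Irf7 was not, at -0.18 (adjusted p = 0.457).

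Antiviral interferon-stimulated genes, the set by which type I interferon is usually read, split in 2 directions. Of 73 tested, 32 were called higher and 14 lower, with a median of 0.20 against 0.06 for all genes. At least 2-fold in both pairs were 6 higher and 3 lower, and in the fit to all 8 libraries 1 passed higher and 2 lower. The 3 lower ones were Ifi27l2a, Oas1a and Oas1g. Ifi27l2a stood at 14.4 and 11.2 CPM in IFNAR;RelB-DBDB, against 55.4 and 58.6 CPM in RelB-DBDB, a log2 difference of -2.08 ± 0.11 (SE, adjusted p = 1.52e-22). Oas1a, an oligoadenylate synthetase that senses double-stranded RNA, stood at 5.51 and 5.09 CPM in IFNAR;RelB-DBDB, against 22.9 and 22.4 CPM in RelB-DBDB, a difference of -1.91 ± 0.15 (SE, adjusted p = 7.07e-16). Oas1g, a near copy of it, stood at 0.584 and 0 CPM in IFNAR;RelB-DBDB, against 4.18 and 4.06 CPM in RelB-DBDB, and short reads may be shared between them. In all 3 genes both IFNAR;RelB-DBDB libraries lay below both RelB-DBDB libraries.

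Higher by at least 2-fold in both pairs were Ly6a, Gm4951, Slfn1, Cmpk2, Ly6e and Ifit2. Ly6a, for the surface protein Sca-1, stood at 77.8 and 79.1 CPM in IFNAR;RelB-DBDB, against 17.8 and 18.2 CPM in RelB-DBDB, a log2 difference of 2.07 ± 0.10 (SE, adjusted p = 1.75e-25). Gm4951, an interferon-inducible GTPase-like gene, stood at 37.7 and 36.6 CPM in IFNAR;RelB-DBDB, against 8.94 and 8.60 CPM in RelB-DBDB. Cmpk2, a nucleotide kinase, stood at 13.5 and 15.1 CPM in IFNAR;RelB-DBDB, against 5.14 and 4.55 CPM in RelB-DBDB, a difference of 1.39 ± 0.17 (SE, adjusted p = 6.45e-10). Ifit2, which binds foreign RNA, differed by 1.14, and Ifit1 by 0.69. Isg15, a ubiquitin-like protein, did not pass, at 9.10 and 10.1 CPM in IFNAR;RelB-DBDB, against 10.5 and 8.93 CPM in RelB-DBDB (log2 difference -0.01, adjusted p = 0.971), nor did Mx1, at 0.07. Of 12 cytosolic nucleic acid sensors 8 were called higher, among them Zbp1 at 0.98 and Samhd1 at 0.66, and Dhx58 was called lower at -0.35.

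The order of these groups turned with time of CpG, which libraries outside the comparison show. Gbp2 stood at 1663 and 1851 CPM in IFNAR;RelB-DBDB, against 487 and 1831 CPM in RelB-DBDB at 3 h and 8 h of CpG. Its log2 difference was 1.77 at 3 h and 0.02 at 8 h. Cmpk2 stood at 4.55 and 1.08 CPM in IFNAR;RelB-DBDB, against 81.0 and 300.1 CPM in RelB-DBDB, a difference of -3.89 and -7.18. The median over the GTPase genes was 0.91 at 3 h and -0.87 at 8 h, and over the antiviral genes -0.81 at 3 h and -2.70 at 8 h, beside 0.02 and 0.30 for all genes. Irf7 and Isg15, which did not pass in the early pairs, lay at -6.41 and -4.01 at 8 h. The test of the late against the early genotype difference in all 8 libraries called 0 of 12297 genes by limma (0.0%), with 874 at an unadjusted p under 0.05. With condition as a term, a library left without its partner carries no genotype difference. Leaving out 1 library therefore removes its whole pair and leaves 1 early or 1 late pair. The stability of the count of 0 to single libraries was for this reason not tested. Mitochondrial reads made up 6.26% of the RelB-DBDB 8 h library and at most 2.41% of every other.

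**Figure D3:**
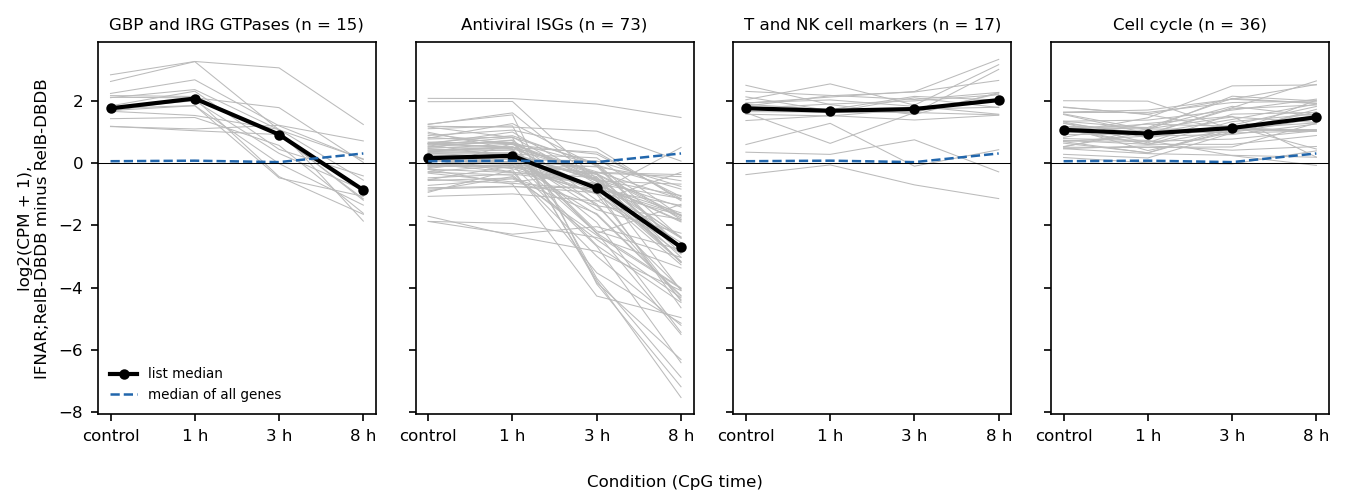
Log2(CPM + 1) difference, IFNAR;RelB-DBDB minus RelB-DBDB, in the control, 1 h, 3 h and 8 h pairs for 4 gene lists. Grey lines are genes, the black line is the list's median and the dashed line is the median of all genes tested. The GTPase median stands at 1.87 over the early pairs and at -0.87 at 8 h, while the T and NK cell median stands at 1.75 in control cells and 2.01 at 8 h.

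Markers of T and NK cells were higher throughout, in a culture meant to hold dendritic cells. Of 17 tested, 15 were called higher and 1, Il7r, lower, and 13 were at least 2-fold higher in both pairs. The median was 1.79 in the early pairs, 1.73 at 3 h and 2.01 at 8 h. In the fit to all 8 libraries 12 of the 17 passed. In bulk RNA, more cells of a type and more RNA per cell cannot be told apart. The T cell receptor complex gene Cd3d stood at 12.4 and 13.2 CPM in IFNAR;RelB-DBDB, against 2.28 and 1.46 CPM in RelB-DBDB, a log2 difference of 2.28 ± 0.19 (SE, adjusted p = 4.8e-15). Trbc2, for a constant region of the T cell receptor, stood at 13.7 and 15.1 CPM in IFNAR;RelB-DBDB, against 2.00 and 2.60 CPM in RelB-DBDB, and Trac, for the other chain, at 11.6 and 12.9 CPM in IFNAR;RelB-DBDB, against 2.76 and 2.76 CPM in RelB-DBDB. Both IFNAR;RelB-DBDB libraries lay above both RelB-DBDB libraries in these 3 genes. The kinase gene Lck, which starts receptor signalling, differed by 2.18 ± 0.17 (SE, adjusted p = 3.49e-16), and Cd8b1, for a chain of the CD8 coreceptor, by 1.99 ± 0.14 (SE, adjusted p = 2.24e-17). Cd8a, which dendritic cells can also express, differed by 1.95.

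Cytotoxic genes were among them. Gzmb, for granzyme B, stood at 120.2 and 119.5 CPM in IFNAR;RelB-DBDB, against 30.9 and 28.7 CPM in RelB-DBDB, a log2 difference of 1.97 ± 0.08 (SE, adjusted p = 1.38e-27). Gzmc, a related granzyme gene, stood at 36.4 and 37.9 CPM in IFNAR;RelB-DBDB, against 6.09 and 4.06 CPM in RelB-DBDB, a difference of 2.67 ± 0.14 (SE, adjusted p = 1.27e-22). Nkg7, for a granule membrane protein, differed by 2.01 and Prf1, for perforin, by 1.12. Cxcr6, a chemokine receptor of effector T cells, stood at 11.8 and 14.3 CPM in IFNAR;RelB-DBDB, against 1.33 and 1.79 CPM in RelB-DBDB, and Grap2, an adaptor of the T cell receptor, at 9.85 and 10.4 CPM in IFNAR;RelB-DBDB, against 1.24 and 1.30 CPM in RelB-DBDB. Ms4a4b, a T cell membrane protein gene, differed by 2.22 ± 0.20 (SE, adjusted p = 9.72e-14). Cd4 was low, at 1.84 and 1.19 CPM in IFNAR;RelB-DBDB, against 1.24 and 0.812 CPM in RelB-DBDB, and did not pass (adjusted p = 0.358). The NK receptor genes listed were uneven: Ncr1 had no read in the 4 libraries and Klrb1c stayed under 1 CPM. Klrd1 was tested and was among the 15 members called higher.

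Like the GTPase genes and Ifng, 16 of the 17 tested markers were higher in IFNAR;RelB-DBDB in both early pairs. The same held for 5472 of all 11915 genes tested. Summed over the 19 listed genes the markers stood at 636 and 670.2 CPM in IFNAR;RelB-DBDB, against 323 and 316 CPM in RelB-DBDB. In that sum Il7r alone had 149 to 193 CPM. Their part in the higher GTPase, Cxcl9 and Ifng levels was not tested. At 8 h the T and NK genes were still higher in IFNAR;RelB-DBDB, with Ifng at 2.67, while 7 of the 15 GTPase genes were at least 2-fold lower than in RelB-DBDB. Of all 11915 genes tested, 400 were at least 2-fold lower at 8 h. The summed GTPase level at 3 h and 8 h was 3273 and 2985 CPM in IFNAR;RelB-DBDB, against 1563 and 3905 CPM in RelB-DBDB. The order at 8 h thus came with a rise in RelB-DBDB and not with a fall below the early level in IFNAR;RelB-DBDB.

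Other lineages of marrow cultures differed too. Of 8 mast cell and basophil markers, 7 were called higher and 1, Kit, lower, with a median of 0.97, and 2 passed in the fit to all 8 libraries. Mcpt8, a basophil protease gene, stood at 8.60 and 7.64 CPM in IFNAR;RelB-DBDB, against 0.951 and 1.79 CPM in RelB-DBDB, and Cpa3, a mast cell protease gene, at 5.43 and 6.11 CPM in IFNAR;RelB-DBDB, against 1.33 and 1.14 CPM in RelB-DBDB. Mcpt1, Mcpt2 and Tpsab1 had no read. The eosinophil granule gene Prg2 stood at 18.9 and 18.7 CPM in IFNAR;RelB-DBDB, against 6.56 and 4.38 CPM in RelB-DBDB, and 4 of 5 eosinophil markers were called higher. Ighm, for the IgM heavy chain, differed by 1.47 ± 0.12 (SE, adjusted p = 7.67e-16), the only B cell marker called higher of 8. Of 14 macrophage and monocyte markers 5 were called higher, with C1qb at 1.10 and Ly6c2 at 1.23, and 8 lower, with Mertk, Mrc1 and Cd14 foremost. Summed mast cell and basophil markers stood at 45.5 and 47.1 CPM in IFNAR;RelB-DBDB, against 24.0 and 24.5 CPM in RelB-DBDB. Dendritic cell markers summed to 14461 and 15016 CPM in IFNAR;RelB-DBDB, against 13052 and 13542 CPM in RelB-DBDB. Most of each of these sums was Cd74, while Itgax and Kit of the same list were lower in IFNAR;RelB-DBDB.

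Genes of the cell cycle were higher as a group. Of 36 tested, 34 were called higher and 0 lower, and 11 were at least 2-fold higher in both pairs. In the fit to all 8 libraries 7 of the 36 passed. Their median was 0.98 in the early pairs, 1.12 at 3 h and 1.46 at 8 h, beside 0.06, 0.02 and 0.30 for all genes. At least 2-fold higher at 8 h were 29 of 36, where 1532 of the 11915 genes tested were. The TMM factors of the 8 h pair lay apart, at 1.03 in IFNAR;RelB-DBDB and 0.78 in RelB-DBDB. Mki67, the proliferation marker Ki-67, stood at 86.7 and 97.7 CPM in IFNAR;RelB-DBDB, against 21.02 and 24.0 CPM in RelB-DBDB, a log2 difference of 1.99 ± 0.09 (SE, adjusted p = 4.87e-26). Top2a, the topoisomerase of dividing cells, stood at 76.3 and 77.4 CPM in IFNAR;RelB-DBDB, against 24.3 and 24.5 CPM in RelB-DBDB, and Ccna2, for cyclin A2, at 22.7 and 20.6 CPM in IFNAR;RelB-DBDB, against 6.66 and 5.68 CPM in RelB-DBDB. Rrm2, which makes deoxynucleotides, differed by 1.67 ± 0.13 (SE, adjusted p = 7.01e-16), and Cdc6, which licenses origins, by 1.67 ± 0.18 (SE, adjusted p = 5.21e-11). The 2 members that did not pass were Pcna at 0.09 and Bub1b at 0.22. The T and NK cell markers above moved in the same direction, and their part in this was not tested.

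**Figure D4:**
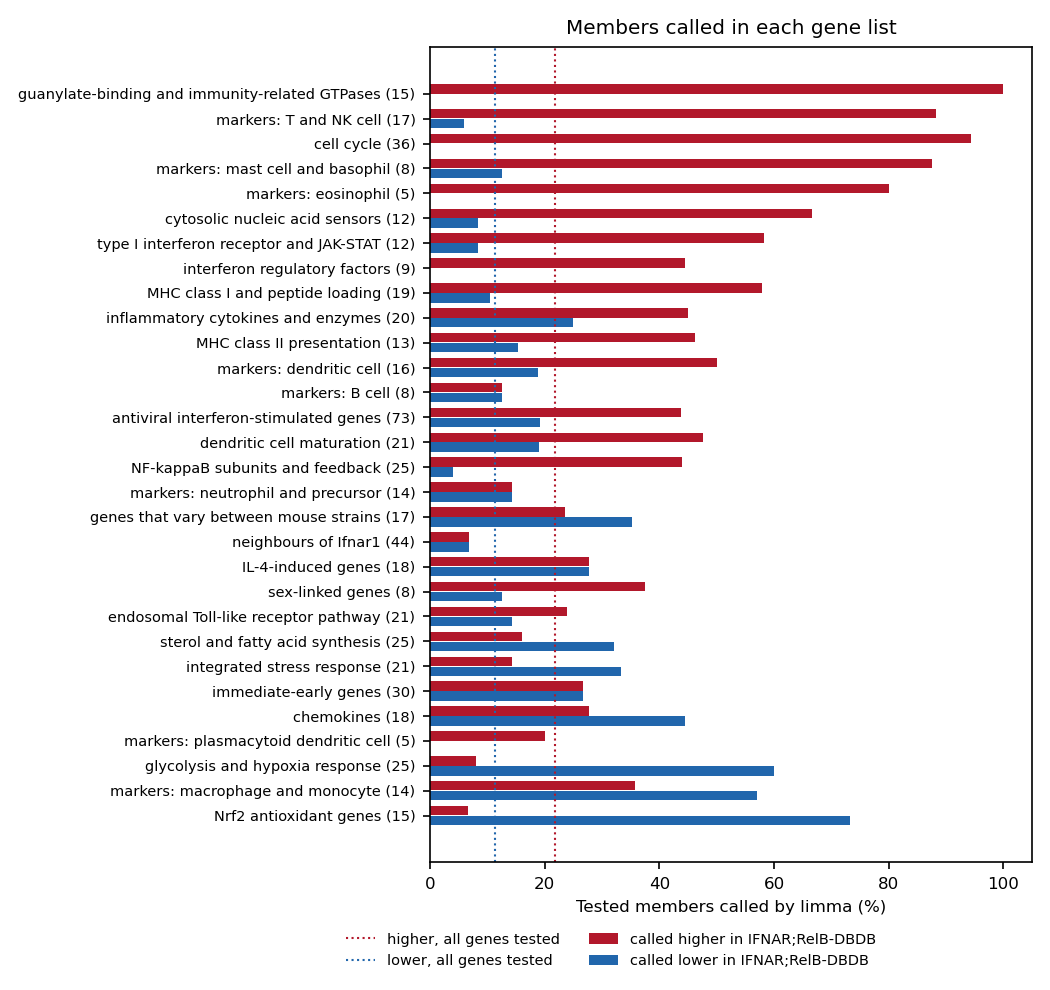
Percentage of tested members called higher (red) or lower (blue) in IFNAR;RelB-DBDB by limma for each list with at least 5 tested members, ordered by median difference. Dotted lines mark the 21.8% and 11.4% of all genes called in each direction. The GTPase, cell cycle and T and NK cell lists stand far right of the red line, and the Nrf2 list far right of the blue line.

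The genes lowest in IFNAR;RelB-DBDB had varied known functions. Cyp1b1, a cytochrome P450 induced through the aryl hydrocarbon receptor, stood at 0.334 and 0.255 CPM in IFNAR;RelB-DBDB, against 15.3 and 12.5 CPM in RelB-DBDB, a log2 difference of -3.52 ± 0.21 (SE, adjusted p = 3.57e-21). Ahrr, the repressor of that receptor, stood at 2.09 and 1.44 CPM in IFNAR;RelB-DBDB, against 10.6 and 10.7 CPM in RelB-DBDB, a difference of -2.08 ± 0.19 (SE, adjusted p = 2.54e-13). Both genes, named for the size of their differences, were lower in each pair with no overlap. Cyp1b1 in IFNAR;RelB-DBDB had 4 reads in control cells and 3 at 1 h. Spint1, an inhibitor of serine proteases (chromosome 2, 119237362 to 119249527, plus strand), stood at 5.26 and 3.74 CPM in IFNAR;RelB-DBDB, against 56.9 and 53.7 CPM in RelB-DBDB. Its read ratio was 0.0925 (95% interval 0.0702 to 0.120) in control cells and 0.0695 (95% interval 0.0496 to 0.0954) at 1 h. Mmp8, a collagenase best known from neutrophils, stood at 5.34 and 3.31 CPM in IFNAR;RelB-DBDB, against 47.4 and 43.5 CPM in RelB-DBDB, while of 14 neutrophil markers 2 were called higher (14.3%) and 2, Mmp8 and Prtn3, lower (14.3%), near the 21.8% and 11.4% of all genes.

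Gpnmb, a membrane glycoprotein of lysosome-rich macrophages (chromosome 6, 49036546 to 49070929, plus strand), stood at 141 and 132 CPM in IFNAR;RelB-DBDB, against 641 and 728 CPM in RelB-DBDB, a log2 difference of -2.31 ± 0.06 (SE, adjusted p = 3.81e-37). Mertk, a receptor for the uptake of dead cells, stood at 2.92 and 2.21 CPM in IFNAR;RelB-DBDB, against 15.98 and 14.3 CPM in RelB-DBDB, and Ctsk, the collagen-degrading cathepsin K, at 3.59 and 3.65 CPM in IFNAR;RelB-DBDB, against 21.97 and 20.5 CPM in RelB-DBDB. Mrc1, the mannose receptor CD206, stood at 34.6 and 33.7 CPM in IFNAR;RelB-DBDB, against 96.7 and 106 CPM in RelB-DBDB, a difference of -1.54 ± 0.08 (SE, adjusted p = 1.58e-22). All 4 were lower in both pairs with no overlap, but they were named for the size of their differences. Rbp4, a retinol carrier, differed by -2.38 ± 0.16 (SE, adjusted p = 7.78e-19), Abi3bp, a matrix protein gene, by -2.58 ± 0.22 (SE, adjusted p = 1.17e-14), and the fibronectin gene Fn1 by -1.54 ± 0.06 (SE, adjusted p = 6.28e-29). Thbs1, for the matrix protein thrombospondin 1, stood at 535 and 523 CPM in IFNAR;RelB-DBDB, against 1226 and 1294 CPM in RelB-DBDB, and Col1a2, a collagen gene of stromal cells, at 2.42 and 2.21 CPM in IFNAR;RelB-DBDB, against 0.285 and 0.162 CPM in RelB-DBDB. Gdf15, a stress-induced cytokine gene, differed by -2.06 ± 0.13 (SE, adjusted p = 7.68e-20), and Mfap1a, for a spliceosome protein, by -2.43 ± 0.16 (SE, adjusted p = 7.78e-19).

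**Figure D5:**
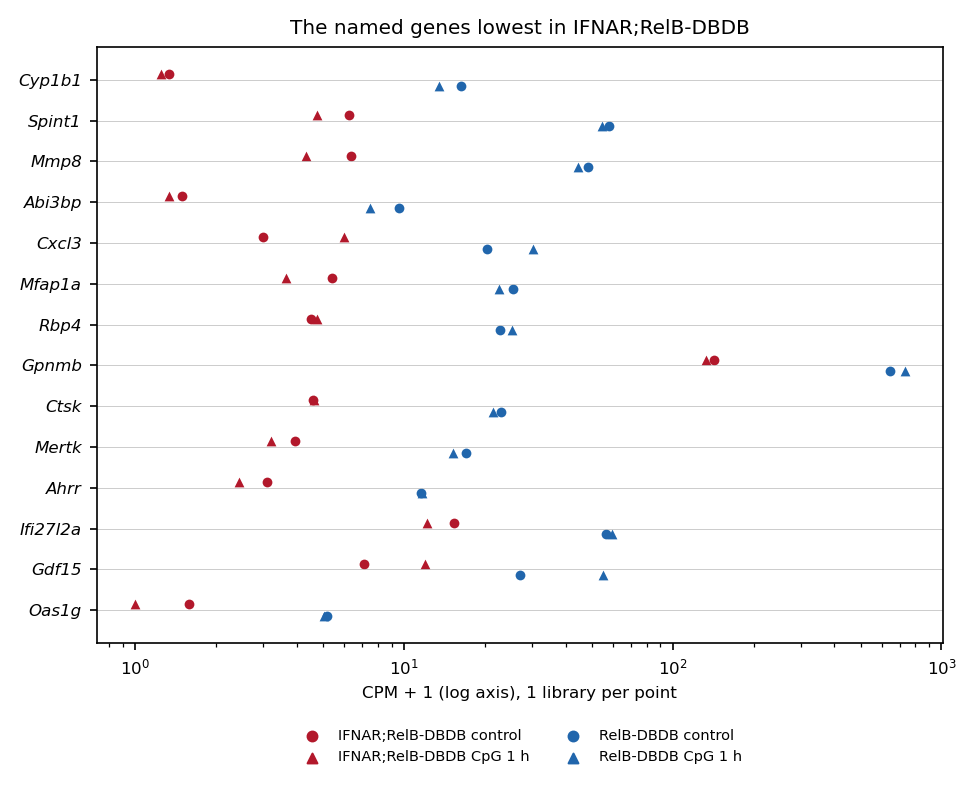
CPM + 1 on a log axis for the 14 named genes with the largest negative difference, 1 point per library, with IFNAR;RelB-DBDB in red and RelB-DBDB in blue and circles for control and triangles for 1 h of CpG. Both red points lie left of both blue points in every row.

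Antioxidant genes controlled by Nrf2 were lower as a group. Of 15 tested, 11 were called lower, where 11.4% of all genes were, and 1, G6pdx, higher, with a median of -0.40. In the fit to all 8 libraries 1 of the 15 passed. Hmox1, the haem oxygenase, stood at 956 and 860.0 CPM in IFNAR;RelB-DBDB, against 1955 and 1724 CPM in RelB-DBDB, a log2 difference of -1.02 ± 0.05 (SE, adjusted p = 4.06e-23). Gstm1, a glutathione transferase, differed by -1.07 ± 0.13 (SE, adjusted p = 2.1e-09) and Srxn1, which repairs peroxiredoxins, by -0.72 ± 0.06 (SE, adjusted p = 4.77e-15). The group was lower at 3 h too, at a median of -0.88. Of 25 genes of glycolysis and the hypoxia response, 2 were called higher and 15 lower, with a median of -0.21, and 3 passed in the fit to all 8 libraries. Egln3, an oxygen-sensing hydroxylase, stood at 34.4 and 48.6 CPM in IFNAR;RelB-DBDB, against 97.4 and 123 CPM in RelB-DBDB, a difference of -1.40 ± 0.08 (SE, adjusted p = 1.42e-21), and Bnip3, a mitophagy receptor, at 20.4 and 28.6 CPM in IFNAR;RelB-DBDB, against 47.2 and 56.5 CPM in RelB-DBDB. The glycolytic enzyme Gpi1 differed by -0.50. At 8 h that list's median was 0.18.

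Of 18 genes induced by IL-4, which the medium contained, 5 were called higher (27.8%) and 5 lower (27.8%), beside 21.8% and 11.4% of all genes, and the median was 0.01. Retnla, for resistin-like α, was higher, at 912 and 887 CPM in IFNAR;RelB-DBDB, against 429 and 430.0 CPM in RelB-DBDB, and Arg1, for arginase 1, was lower, at 1607 and 1658 CPM in IFNAR;RelB-DBDB, against 2675 and 2902 CPM in RelB-DBDB. The chitinase-like gene Chil3 differed by -0.58 and Cish, an inhibitor of cytokine signalling, by 0.86. The sum of the list was 22126 and 21482 CPM in IFNAR;RelB-DBDB, against 28563 and 28708 CPM in RelB-DBDB. For sterol and fatty acid synthesis 4 were called higher and 8 lower of 25, and for the integrated stress response 3 higher and 7 lower of 21, with Cebpb at -0.76 and Phgdh at 0.84.

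Inflammatory cytokine genes went both ways, with Tnf, Il1b and Il12b higher. Tnf stood at 10.6 and 408 CPM in IFNAR;RelB-DBDB, against 8.08 and 298 CPM in RelB-DBDB, a log2 difference of 0.40 ± 0.08 (SE, adjusted p = 0.000106). Il1b stood at 7.76 and 79.1 CPM in IFNAR;RelB-DBDB, against 3.90 and 35.4 CPM in RelB-DBDB, a difference of 0.99 ± 0.13 (SE, adjusted p = 1.01e-08). Il12b, for a subunit of interleukins 12 and 23, stood at 15.0 and 115 CPM in IFNAR;RelB-DBDB, against 7.89 and 41.2 CPM in RelB-DBDB and differed by 1.15 ± 0.12 (SE, adjusted p = 3.97e-12). Of 20 tested inflammatory cytokines and enzymes 9 were called higher and 5 lower, the lower ones led by Csf1 at -0.81 and Nos2 at -0.71. In the NF-κB list 11 of 25 were called higher and 1 lower, at a median of 0.13, but with TMM scaling 8 were higher and 5 lower. Nfkbie, an inhibitor of NF-κB, differed by 0.51. The immediate-early list held 8 higher and 8 lower of 30, with Dusp2 at 1.34 and Fosb at -1.31.

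Of 18 chemokine genes 5 were called higher (27.8%) and 8 lower (44.4%), beside 21.8% and 11.4% of all genes, with a median of -0.11. At least 2-fold in both pairs were 2 higher and 1 lower. Cxcl3, which attracts neutrophils, stood at 2.00 and 5.01 CPM in IFNAR;RelB-DBDB, against 19.4 and 29.2 CPM in RelB-DBDB, a log2 difference of -2.55 ± 0.16 (SE, adjusted p = 1.36e-19). Cxcl2 differed by -1.18 ± 0.15 (SE, adjusted p = 3.51e-09), and as near copies the 2 may share reads. Of 21 genes of the endosomal Toll-like receptor pathway 5 were called higher (23.8%) and 3 lower (14.3%), near the shares of all genes, and with TMM scaling 8 were lower. Tlr7, a receptor for single-stranded RNA, stood at 4.76 and 4.24 CPM in IFNAR;RelB-DBDB, against 11.1 and 11.7 CPM in RelB-DBDB, a difference of -1.17 ± 0.17 (SE, adjusted p = 1.46e-07), against the higher Tlr9. Of 21 genes of dendritic cell maturation 10 were called higher and 4 lower, with Il15ra at 1.10, Icosl at 0.96 and Tnfrsf9 at -0.78.

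A few genes were read in 1 genotype and almost not in the other. Eif3j2, a copy of a translation initiation factor gene, stood at 7.68 and 9.68 CPM in IFNAR;RelB-DBDB, against 0 and 0 CPM in RelB-DBDB. With no read in RelB-DBDB it was at least 26.9-fold higher in control cells and at least 19.9-fold at 1 h, set against 3 reads per library. Slc15a2, a peptide transporter gene (chromosome 16, 36750177 to 36784962, minus strand), stood at 4.68 and 6.20 CPM in IFNAR;RelB-DBDB, against 0 and 0 CPM in RelB-DBDB, at least 16.4-fold and 12.7-fold higher. Among 17 tested genes known to vary between mouse strains 4 were called higher and 6 lower. Casp4, for caspase-11, stood at 9.43 and 14.8 CPM in IFNAR;RelB-DBDB, against 41.3 and 40.4 CPM in RelB-DBDB, and Wdfy1 differed by -1.09 ± 0.10 (SE, adjusted p = 4.06e-14). Of 44 tested neighbours of Ifnar1 on chromosome 16, 3 were called higher and 3 lower, with Ets2 lowest at -0.72, against 21.8% and 11.4% of all genes. The share of genes at least 2-fold apart was 3.7% on chromosome 2, 3.67% on chromosome 11 and 3.64% on chromosome 16, and under those on every other chromosome.

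Most of the large early differences were present in the later libraries too, whose values the 2-fold rule did not use. Nothing in the labels says that the later cultures came from other mice, so they are not an independent repeat. Of the 233 genes at least 2-fold higher in both early pairs, 195 were higher and 128 at least 2-fold higher at both 3 h and 8 h (54.9%), where 2.08% of all genes were. Of the 83 lower genes, 69 were lower and 46 at least 2-fold lower at both times (55.4%), where 0.965% were. Of the 233, 11 were lower at both late times, and 1 of the 83 was higher. Of the 14 highest named genes, 14 were at least 2-fold higher at 3 h and 10 at 8 h, and of the 14 lowest, 13 were at least 2-fold lower at 3 h and 13 at 8 h. Among all 11915 genes tested, 350 at 3 h and 1532 at 8 h were at least 2-fold higher, and 205 and 400 lower. Gpnmb stood at 146 and 147 CPM in IFNAR;RelB-DBDB, against 774 and 1627 CPM in RelB-DBDB at 3 h and 8 h, and Cd3d at 10.0 and 14.5 CPM in IFNAR;RelB-DBDB, against 2.05 and 0.752 CPM in RelB-DBDB. Clic5, a chloride channel gene that stood at 7.35 and 6.11 CPM in IFNAR;RelB-DBDB, against 0.666 and 0.487 CPM in RelB-DBDB in the early libraries, was among the exceptions, at 8.92 and 9.16 CPM in IFNAR;RelB-DBDB, against 1.25 and 11.5 CPM in RelB-DBDB.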

How the data were processed

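Libraries were made with a stranded mRNA kit from 1 µg of RNA and read as single ends of 50 bp, per the labels' protocols. The submitters' processing notes name cutadapt, edgeR and build mm10, and which aligner, annotation and strand setting were used is not given in the sources used here. The authors deposited signal values that equal CPM plus 1. All 8 columns have 1 as their minimum, and after subtracting 1 all values (100%) fall on whole reads within 0.01 read. Worked back in this way, the 4 early libraries held 11977778 and 11779181 reads (IFNAR;RelB-DBDB) and 10514734 and 6159951 reads (RelB-DBDB). Another 16 columns belong to other samples and were not used. Rows without a name (2161) counted toward totals only, and 11 names on more than 1 row are not named.

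The test was limma 3.58.1 in R 4.3.3 on log2(CPM + 1), with condition and genotype as terms, 1 residual degree of freedom and moderation with a trend over all genes. Benjamini-Hochberg adjustment was over 11915 genes, with a threshold of 0.05. This takes the gap between the control and 1 h differences as the error, which is too small where the cultures share a mouse. The scale understates changes of low genes. Ratios of reads have exact 95% intervals, for counting error only. On simulated counts of 4 independent libraries the early test found 98 of 100 genes changed 2-fold and made 13 false calls. None of the changed genes was a low one, and the simulated spread between libraries was fixed. The simulation held no added difference between cultures or mice. It therefore cannot show how many of the 3956 calls are false. Coordinates are from GENCODE M21 (mm10), and promoters from RefSeq.

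The libraries, the gene lists and the rule for naming genes were chosen with earlier results of these data known. Named were 12 fixed genes, the 15 highest and 15 lowest called genes without predicted names, and in each list the 4 members that differed most plus called ones up to 8. Some genes that the rule takes are not reported here. Members named outside that rule, such as Irgm1, Irgm2, Gbp3, Gbp8, Ifit1, Ifit2, Mx1, Il7r, Prf1, Cd4, Pcna, Bub1b and those at 0, were chosen after their values were seen. Alternatives were other constants, filters, scaling factors, limma-voom, a fold threshold, a fit to all 8 libraries and leaving out 1 library.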

Additional observations from a re-analysis of the deposited data

Results flagged for a closer look

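In a few named genes both early pairs lay at least 2-fold on the higher side and both late pairs below 0. The change of the difference, late minus early, was -3.58 on the log2 scale for Gm4951, -6.92 for Cmpk2, -3.75 for Slfn1, -6.43 for Ifit2, -2.44 for Irgm1, -2.57 for Irgm2 and -3.03 for Cxcl10. In Slfn1, a Schlafen family gene, the early levels were 21.5 and 20.3 CPM in IFNAR;RelB-DBDB, against 8.56 and 6.01 CPM in RelB-DBDB, and at 3 h and 8 h they were 16.9 and 9.16 CPM in IFNAR;RelB-DBDB, against 25.9 and 172 CPM in RelB-DBDB. The limma test of that change gave an adjusted p of 0.395 for Gm4951, 0.31 for Cmpk2, 0.639 for Slfn1, 0.31 for Ifit2, 0.376 for Irgm1, 0.201 for Irgm2 and 0.639 for Cxcl10, so none passed.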

How the results depend on the processing

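The count of genes that differed in the 4 early libraries was 3956 and stayed between 3730 and 4078 with a constant of 0.5 or 5, no filter, a filter of 20 reads, TMM or median-ratio factors, or limma-voom. It was 369 against a fold of 1.5, 2267 without the condition term and 190 in the fit to all 8 libraries, where leaving out each early library in turn gave 71 to 87. Median-ratio factors called 1925 genes higher and 2153 lower. No paired analysis was possible because each genotype and condition has 1 library and the shared number 1 pairs nothing beyond the condition, which the fit already holds as a term. The count by size, 316, was 123 with a constant of 5, 944 at a fold of 1.5 and 33 at a fold of 4. The early against late count, 0, ranged between 69 and 5641 when any 1 of the 8 libraries was omitted. Among the named genes, 70 called ones missed the threshold in the fit to all 8 libraries, 36 against a fold of 1.5, 18 without the condition term and at most 2 under the other constants, filters and scalings. The cause was not tested. The sign turned in 5 named genes, of which Rn7sk and Il1a had been called. Il1a stood at 0.11 with limma-voom and Mx1 at -0.0067 with TMM or median-ratio factors. Leaving out 1 early library from the fit to all 8 gave -0.087 to 0.23 for Mx1, -0.030 to 0.011 for Ifnar2, -0.18 to 0.16 for Isg15, -1.50 to 0.19 for Rn7sk and -1.32 to 0.38 for Il1a. The ends of each range are the differences of the control pair and of the 1 h pair alone. The planned edgeR and DESeq2 fits on the recovered reads were not run. Depth sets the floor: the 1 h RelB-DBDB library, with 6159951 reads, gives 0.487 CPM for 3 reads, so low genes there rest on few reads.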

Other observations

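A few genes set the 1 h library of IFNAR;RelB-DBDB apart from the other early libraries, a pattern chosen after the values were seen. Of the 11915 genes, 106 had early differences that lay 1 or more apart on the log2 scale between the control and 1 h pairs. Where the 1 h difference was the lower one, the 5 widest gaps were those of Yam1, Gm23935, Mir6236, Lars2 and Gm15564, and the widest gap the other way was 2.04. In IFNAR;RelB-DBDB Yam1 stood at 14085 CPM (control) and 1881 CPM (1 h), against 16774 and 17445 CPM in RelB-DBDB. In the 8 h libraries it stood at 4056 CPM in IFNAR;RelB-DBDB and 661 CPM in RelB-DBDB. Gm23935, Mir6236, Lars2 and Gm15564 were likewise lower in the RelB-DBDB 8 h library than in the 1 h library of IFNAR;RelB-DBDB. Rn7sk, a nuclear RNA without a poly(A) tail, stood at 5.52 CPM at 1 h in IFNAR;RelB-DBDB, against 17.4 CPM in RelB-DBDB. At 8 h it stood at 6.20 CPM in IFNAR;RelB-DBDB and 3.87 CPM in RelB-DBDB. What these reads stand for was not tested, and none of these genes is in a list above.

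Il1a, for interleukin 1α, changed order between the early pairs. In IFNAR;RelB-DBDB it stood at 2.67 CPM (control) and 58.7 CPM (1 h), against 8.18 and 45.0 CPM in RelB-DBDB, a log2 difference of -1.32 in control cells and 0.38 at 1 h.

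Over all 4 conditions, 6 genes had at least 1 CPM in every IFNAR;RelB-DBDB library and at most 3 reads in every RelB-DBDB library, and 4 genes the reverse. They were chosen after the values were seen. In IFNAR;RelB-DBDB these were Slc15a2, Itpa-ps1, Pvrl3, Col1a2, Gm26862 and Gm26975, and in RelB-DBDB they were Cd59a, Ccdc73, 2010005H15Rik and A730017L22Rik. Cd59a, for an inhibitor of complement, stood at 0.167 and 0.255 CPM in IFNAR;RelB-DBDB, against 1.71 and 1.62 CPM in RelB-DBDB. Of the 8 with coordinates, 4 lay on chromosome 2 and 2 on chromosome 16, where Slc15a2 begins at 36750177 and 2010005H15Rik at 36221468 of mm10. Of the 11915 genes tested, not all with coordinates, 920 lay on chromosome 2 and 357 on chromosome 16. With so few genes, picked after their values were seen, no test of their place was made.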
